A study of Homo sapiens with 3 samples.

Results

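The keratins described here are the 55 genes, of 22825 genes in all, whose symbol in the deposited tables is KRT followed by a number and at most 1 letter, so that keratin-associated proteins are left out. Each was given the count of its RefSeq transcript record with the largest total among the records that the tables name. For KRT8 a record listed by accession alone held more, 47049, 58600 and 33747 counts in replicates 1, 2 and 3 against the 43962, 54552 and 31308 used. RNA was sequenced from MDA-MB-231, an established human triple-negative breast cancer cell line that carries the R280K missense change in p53, in a study whose title links p53 missense mutants with the proteasome. All 3 libraries form 1 group, labelled as biological replicates, of cells that received a control siRNA at 50 nM with Lipofectamine RNAiMax on 2 occasions 24 h apart and were harvested 48 h after the second. The p53 siRNA arm is not analysed here, so no effect of an siRNA can be read from these values, and a single line limits them to that line. The design allows a comparison among keratins within each library and of the spread between libraries.

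Keratins are the intermediate filament proteins of epithelial cells. A filament subunit is a heterodimer of 1 acidic type I keratin and 1 basic or neutral type II keratin, so a cell that builds filaments needs members of both types. Simple epithelia, such as the luminal layer of the breast, use KRT8, KRT18, KRT19 and KRT7, the basal layer of breast and skin uses KRT5 with KRT14, and wound-activated and differentiating keratinocytes and the hair shaft each use further pairs. Apart from the type I gene KRT18, which neighbours KRT8, type II genes lie in a cluster on chromosome 12 and type I genes in a cluster on chromosome 17.

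Gene counts summed to 54514872 to 84884298 per library. The labelled line was checked on 8 genes. VIM, CD44, AXL and CAV1, which are abundant in mesenchymal-like breast cancer cells, lay between 165 and 4679 TPM (counts scaled for transcript length and library size). The receptor genes ESR1, with 1 to 3 counts, and PGR, with 19 to 30 counts, were near 0, and ERBB2 was at 28.6 ± 1.66 TPM (SD, n = 3). CDH1, the E-cadherin gene, was at 0.851, 0.550 and 0.403 TPM in replicates 1, 2 and 3. Summed CPM (counts scaled for library size alone) of the marker lists were 2.47 to 3.52 for 4 leukocyte genes, 2.71 to 3.66 for 3 endothelial genes and 0.12 to 0.33 for 3 fibroblast genes.

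Of the 55 keratins, 37 had a count in at least 1 library and 18 had none in any. Among all 22825 genes, 17.9% had no count. KRT8, KRT18, KRT19, KRT7, KRT80, KRT10, KRT15 and KRT86 reached 1 CPM in each library, which makes 8 of 55 keratins, beside 55.6% of all genes. Another 4, KRT6A, KRT5, KRT81 and KRT17, passed 1 CPM in replicates 1 and 2 but not in replicate 3. The other 25 keratins with a count stayed at or under 0.531 CPM, the value of KRT34 in replicate 2. A library with 0 counts allows up to 6 counts, or 3 read pairs, at 95% confidence for counting error alone, which equals 0.0878, 0.0708 and 0.109 CPM in replicates 1, 2 and 3. Reads carry no molecular identifiers, so these limits cover counting error only. The plot of keratin levels by library shows this steep order.

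**Figure D1:**
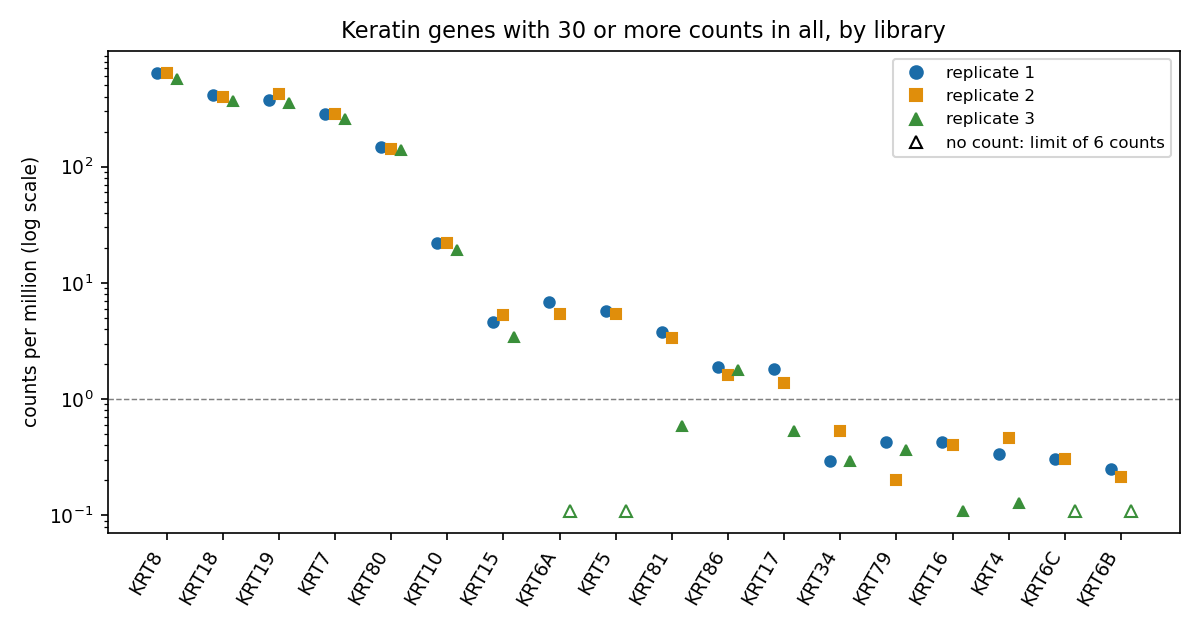
CPM on a log scale of the 18 keratin genes with 30 or more counts over the 3 libraries, ordered by mean; each filled symbol is 1 library, open symbols stand at the limit of 6 counts for a library with no count, and the dashed line is 1 CPM. The first 6 genes lie within a narrow range over libraries, while KRT6A, KRT5, KRT6C and KRT6B have no count in replicate 3 and KRT81 and KRT17 fall below 1 CPM there.

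Simple keratins supplied nearly all of the keratin mRNA. KRT8, the main type II keratin of simple epithelia, was at 868, 861 and 782 TPM in replicates 1, 2 and 3. KRT19, the smallest type I keratin and a marker of luminal and ductal cells, was at 644, 710 and 610 TPM, and KRT18, the type I partner of KRT8, at 627, 598 and 560 TPM. All 3 genes were lowest in replicate 3. KRT7, the type II keratin of glandular ducts, followed at 384, 382 and 352 TPM. The fifth gene of the class, KRT20, a keratin of intestinal epithelium and Merkel cells, had 2, 4 and 0 counts. KRT8, KRT18, KRT19 and KRT7 together held 94.98 ± 0.33% of all keratin TPM (SD, n = 3), and the whole class held the same share to 2 decimals. Without the length correction, the class held 90.1% of keratin CPM.

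In TPM, the ranks within the class were the same in each library. KRT8 exceeded KRT19 by a log2 ratio of 0.35 ± 0.08 (SD, n = 3). KRT19 exceeded KRT18 in 3 of 3 libraries, but the log2 ratio of 0.14 ± 0.11 ranged from 0.04 to 0.25, so these neighbours were close to level in replicate 1. Their order depends on the length correction: in CPM, KRT18 was at 414, 398 and 364 and KRT19 at 378, 421 and 353, with KRT18 higher in replicates 1 and 3. With the records of a gene summed, KRT18, which has 2 records, was at 397 CPM and KRT19, which has 1, at 195. Such sums rise with the number of records of a gene, so they do not measure level alone. KRT18 exceeded KRT7 by 0.67 ± 0.03 on the log2 scale. VIM, the type III filament gene of mesenchymal cells, stood above the keratins in sum, at 1.75 ± 0.0505 times their summed TPM (SD, n = 3), with 1.70, 1.74 and 1.80 in replicates 1, 2 and 3. Genes of both families were transcribed in these cultures, and bulk RNA does not tell whether single cells held both.

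KRT80, a type II keratin found in many epithelia and placed in no class here, was at 90.3, 85.8 and 85.2 TPM, or 3.37 ± 0.17% of keratin TPM (SD, n = 3). It ranked below KRT7 by a log2 difference of 2.10 ± 0.05. KRT80 lies next to KRT7 at one end of the chromosome 12 cluster. The other unclassed genes were KRT23, a type I keratin, with 4, 2 and 0 counts, and KRT222, a short keratin-like gene, with none.

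KRT18 and KRT19, the abundant type I genes that stood closest in level, are distinct in sequence. The lines that follow give 57 bases of coding sequence of each at the start of the rod domain, the part of a keratin that pairs with its partner, and show what a read has to tell them apart. They were read from GENCODE 29 transcripts on GRCh38, each within 1 exon, and capitals mark bases of KRT19 that differ from KRT18. KRT18 lies at chr12:52949408-52949464 on the plus strand and KRT19 at chr17:41527957-41528013 on the minus strand.
KRT18: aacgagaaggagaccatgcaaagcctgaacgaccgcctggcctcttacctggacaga
KRT19: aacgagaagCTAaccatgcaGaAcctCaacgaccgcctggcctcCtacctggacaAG
Over these 57 bases KRT19 differed from KRT18 at 9. Over whole transcripts, none of the 100-base stretches of KRT18, KRT19, KRT7, KRT80, KRT10 and KRT15 occurred in a transcript of another gene, and 7.2% of those of KRT8 did, its pseudogenes among them. KRT8 and KRT18 overlap in the annotation, and KRT8 also overlaps MIR9898. KRT7 overlaps KRT7-AS, KRT87P and TMT1AP1, KRT10 overlaps KRT10-AS1, and KRT15 overlaps MIR6510. The strand setting of the counting is not given in the sources used here, so reads of overlapping genes cannot be told apart.

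Type I and type II keratins were nearly level in sum. Type I genes summed to 1303, 1340 and 1196 TPM and type II genes to 1363, 1347 and 1222 TPM in replicates 1, 2 and 3. Type I was lower in 3 of 3 libraries, by a log2 ratio of -0.07, -0.01 and -0.03, with a mean of -0.04 ± 0.03 (SD, n = 3). The sign depends on KRT80: without it the log2 ratio of type I to type II was 0.06 ± 0.03 and positive in 3 of 3 libraries. Among simple keratins alone it was 0.05 ± 0.03, with 1250 ± 71.5 TPM for type I and 1210 ± 65.9 TPM for type II. The near balance also rests on the length correction and on 1 record per gene, since the log2 ratio was -0.39 in CPM and -0.71 when the records of a gene were summed. The summed value also reflects the number of records: KRT8 has 3, KRT18 and KRT80 have 2, and KRT19 and KRT7 have 1. Whether the records of a gene share reads was not tested. No test was run, because the smallest two-sided exact sign-flip p that 3 libraries allow is 0.25.

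The single pairs were less even than the sums. KRT8 exceeded KRT18, its usual partner, by a log2 ratio of 0.47, 0.53 and 0.48 in replicates 1, 2 and 3, a mean of 0.49 ± 0.03 or 1.41-fold. KRT7 was below both type I partners, at -0.67 ± 0.03 against KRT18 and -0.81 ± 0.08 against KRT19. The type II genes KRT8 and KRT7 thus lay on either side of KRT18 and KRT19 in each library, as the plot of totals and pairs shows. Of 15 partner pairs listed, 4 were above the limit of a 0 count on both sides in every library, and all 4 were pairs of simple keratins. The log2 ratio of KRT8 to KRT18 kept its sign in CPM, at 0.66. It was 1.07 when records were summed, where KRT8 has 3 records and KRT18 has 2. With the larger unnamed record of KRT8, its log2 ratios to KRT18 and KRT19 were 0.60 and 0.46.

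**Figure D2:**
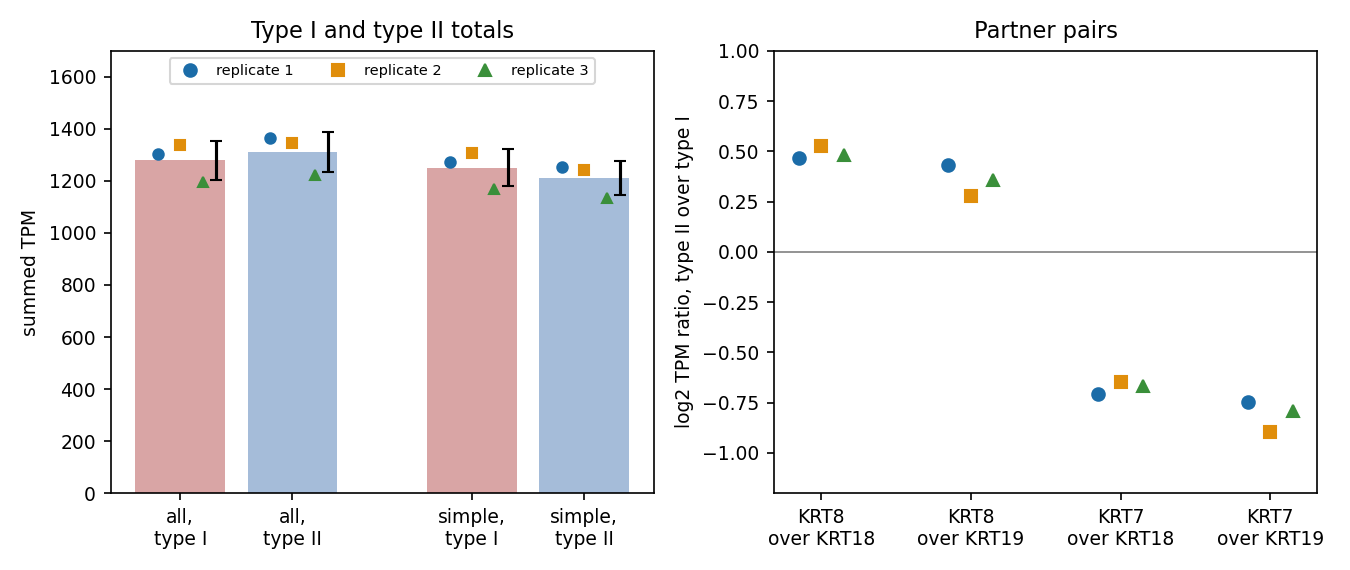
Left, summed TPM of type I and type II keratins over all members and over simple keratins, with bars for the mean, error bars for the SD (n = 3) and symbols for the libraries; the sums over all members are 1279 ± 74.8 and 1311 ± 77.1 TPM. Right, log2 TPM ratio of type II over type I in each library for the 4 pairs measured in all of them, with KRT8 above and KRT7 below both partners.

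Several stratified keratins were transcribed with few or no counts of a listed partner. KRT10, the type I keratin of differentiating epidermis, was at 24.6, 24.4 and 21.6 TPM, whereas its type II partners had 0, 1 and 0 counts (KRT1) and none at all (KRT2). KRT15, a type I keratin of basal keratinocytes, was at 2.07, 2.39 and 1.57 TPM, and KRT17, a type I keratin of basal, myoepithelial and stressed cells, at 2.83, 2.12 and 0.838 TPM. The TPM of KRT15 depends on the transcript taken as its length: 2.01 ± 0.41 with the one matched to its record and 4.40 with its shorter principal transcript. KRT5, the type II keratin of basal cells, had 392, 459 and 0 counts, while its partner KRT14 had 5, 12 and 6. KRT15, also listed as a partner of KRT5, had 313, 451 and 188 counts, so both sides of that pair were present in replicates 1 and 2. KRT6B, the listed partner of KRT17, had 17, 18 and 0 counts beside 124, 116 and 29. KRT6A, the type II keratin of wound-activated epithelium, had 471, 461 and 0 counts beside 29, 34 and 6 for its partner KRT16. The mucosal pair KRT4 and KRT13 had at most 39 and 6 counts, and the corneal pair KRT3 and KRT12 at most 3 and 6. KRT1 with KRT9, a pair of the palm and sole, had at most 1 count each.

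The 21 stratified keratins together held 1.66, 1.55 and 1.03% of keratin TPM. Their type I members summed to 30.4, 29.8 and 24.5 TPM and their type II members to 13.9, 11.9 and 0.543 TPM. The log2 ratio of type I to type II was therefore 1.12 and 1.33 in replicates 1 and 2 and 5.49 in replicate 3, and it is not a stable quantity of the line. In replicates 1 and 2, KRT10 made up most of the type I sum, and KRT6A and KRT5 most of the type II sum.

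The 17 hair shaft keratins held 0.29, 0.26 and 0.14% of keratin TPM. KRT81 and KRT86, type II keratins of the hair cortex, led them. KRT86 was at 2.09, 1.76 and 1.99 TPM and KRT81 at 4.62, 4.05 and 0.727 TPM. The highest type I member was KRT34, at 0.396, 0.712 and 0.400 TPM. Type I hair keratins summed to 0.845 ± 0.246 TPM and type II to 5.18 ± 2.17 TPM, a log2 ratio of -2.55 ± 0.38 (SD, n = 3). The pair KRT85 and KRT35, which starts hair shaft formation, had at most 1 count each. Of the 9 keratins of the hair root sheath and companion layer, 7 had no count and the other two, KRT75 and KRT27, were seen in replicate 2 alone.

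Keratins with no count in any library were spread over the classes. They were KRT2, KRT24, KRT76 and KRT77 of the stratified class, KRT25, KRT26, KRT28, KRT71, KRT72, KRT73 and KRT74 of the root sheath class, KRT31, KRT33A, KRT37, KRT38, KRT82 and KRT84 of the hair shaft class, and KRT222. No simple keratin was among them. The 7 keratin pseudogenes listed by accession had at most 7 counts in a library.

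The most abundant type II keratins were at the ends of their gene cluster, as the plot along both chromosomes shows. On chromosome 12, KRT80 and KRT7 at one end held 460 ± 19.8 TPM and KRT8 and KRT18 at the other end 1432 ± 80.2 TPM. The 23 genes between them, KRT86 to KRT78, summed to 20.9, 17.7 and 3.29 TPM, or 0.53 ± 0.34% of keratin TPM, and 9 of them had no count. On chromosome 17, KRT19 alone held 655 ± 50.9 TPM, and the other 27 members summed to 29.2 ± 3.56 TPM, most of it from KRT10. The chromosome 12 cluster thus held 73.6 ± 1.13% of keratin TPM (SD, n = 3).

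**Figure D3:**
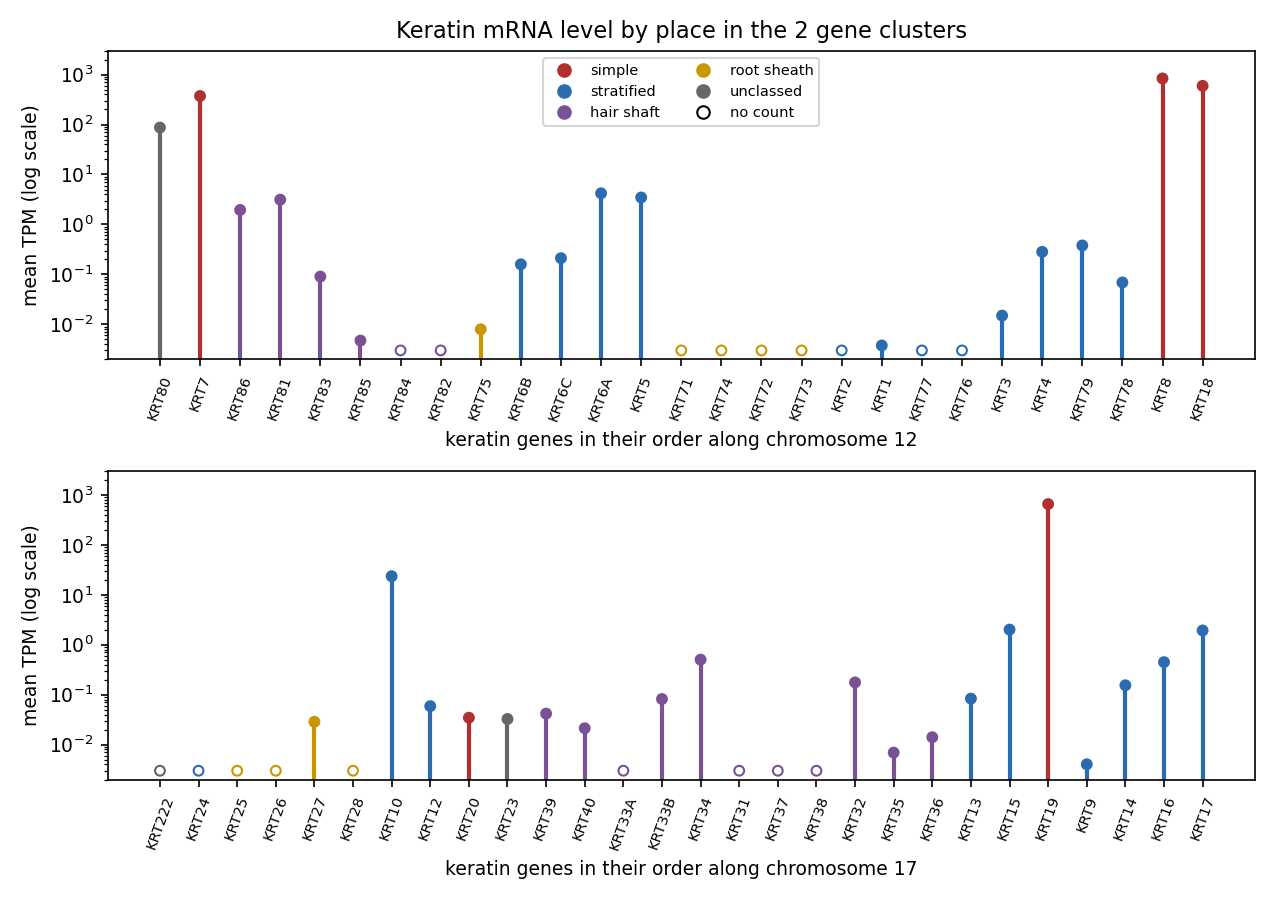
Mean TPM over the 3 libraries on a log scale for the 55 keratin genes in their order along chromosomes 12 (upper) and 17 (lower), coloured by class, with open circles for genes with no count. The genes at both ends of the chromosome 12 cluster and KRT19 on chromosome 17 stand at 87.1 TPM or more, and all genes between the ends of the chromosome 12 cluster at or under 4.2 TPM, the level of KRT6A.

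The libraries differed in keratin counts by more than counting noise. In an edgeR fit over all genes, 9 of 12 keratins tested varied (Benjamini-Hochberg adjusted p under 0.05), beside 4102 of 14422 genes, or 28.4%. All 9 were lowest in replicate 3, beside 1820 of the 4102 genes that varied, which is 12.6% of all genes tested. None of the 12 varied with its lowest value in replicate 1 or 2, beside 7.93 and 7.89% of all genes. The 9 that varied were KRT8, KRT18, KRT19, KRT7, KRT80, KRT10, KRT15, KRT17 and KRT81. This filter asks for a minimum count in every library and so removes a gene that is absent from 1 of them. With a filter on the mean count, chosen after seeing the data, 13 of 18 keratins varied, beside 27.8% of 14921 genes. This added KRT5, KRT6A, KRT6B and KRT6C. They have no count in replicate 3 and passed only through replicates 1 and 2. That they were lowest in replicate 3 was thus fixed by how they entered and adds no support. With them, all 13 were lowest in replicate 3, beside 1849 of the 4153 genes that varied, which is 12.4% of all genes tested. None of the 18 varied with its lowest value in replicate 1 or 2, beside 7.73 and 7.71% of all genes tested. Without replicate 3, 2 of 19 keratins tested varied, KRT18 and KRT19, beside 8.72% of all genes.

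For the simple keratins these differences were small. Replicate 3 stood at 0.884 to 0.902 times the mean CPM of replicates 1 and 2 in KRT19, KRT8, KRT18 and KRT7. KRT8 was at 643, 644 and 571 CPM in replicates 1, 2 and 3 (edgeR adjusted p = 1.26e-36) and KRT19 at 378, 421 and 353 CPM (4.02e-44). The libraries also differed by base composition over all genes: in replicate 3 the log2 deviation from the gene mean was -0.10 to -0.12 in these 4 keratins, and its median was -0.07 to -0.09 over all genes in the same of 10 bins of GC content. With trends in GC content and length removed, 6 of the 9 calls remained, beside 12.9% of all genes called, and KRT7, KRT80 and KRT10 had adjusted p = 0.621, 0.603 and 0.134. When a coefficient of variation of 0.05 between cultures was allowed for, KRT81 alone of the 12 was called (adjusted p = 3.78e-13), beside 0.0485% of genes.

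A second set of keratins was far lower in replicate 3. KRT6A was at 6.89, 5.44 and 0 CPM (edgeR adjusted p = 1.78e-61, mean-count filter) and KRT5 at 5.74, 5.42 and 0 CPM (7.41e-55). Against the limit of 6 counts, replicate 3 was at least 49.8-fold lower than the lower of the other libraries for KRT6A and at least 49.5-fold lower for KRT5. KRT6C had 21, 26 and 0 counts and KRT6B 17, 18 and 0 (adjusted p = 0.00464 and 0.02), which bounds them at 2.81-fold and 1.94-fold. The p-values of KRT6A, KRT5, KRT6C and KRT6B allow for counting noise alone. The fits with a coefficient of variation allowed for, or with GC and length trends removed, did not include these genes. KRT6B, KRT6C, KRT6A and KRT5 are neighbours in this order in the chromosome 12 cluster.

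KRT81 was at 3.76, 3.33 and 0.583 CPM (edgeR adjusted p = 2.10e-17), so that replicate 3 held 0.165 times the mean of the others. KRT17 was at 1.81, 1.37 and 0.528 CPM (adjusted p = 0.00013), a ratio of 0.332. KRT16 and KRT4, which failed the filter on a minimum count in every library, had ratios of 0.265 and 0.320. With the mean-count filter they had edgeR adjusted p = 0.0933 and 0.113, at 6 and 7 counts in replicate 3. KRT86, the neighbour of KRT81, was at 1.90, 1.62 and 1.79 CPM with adjusted p = 0.763, and KRT79 at 0.424, 0.201 and 0.364 CPM with adjusted p = 0.335. Over the 18 keratins with a mean of 10 counts or more, the median ratio of replicate 3 to the mean of the others was 0.70, beside 0.997 over 14921 genes. The 10 stratified keratins among them had a median of 0.29, or 0.344 with the 4 genes without a count at their limit, and the 4 simple keratins had a median of 0.892.

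**Figure D4:**
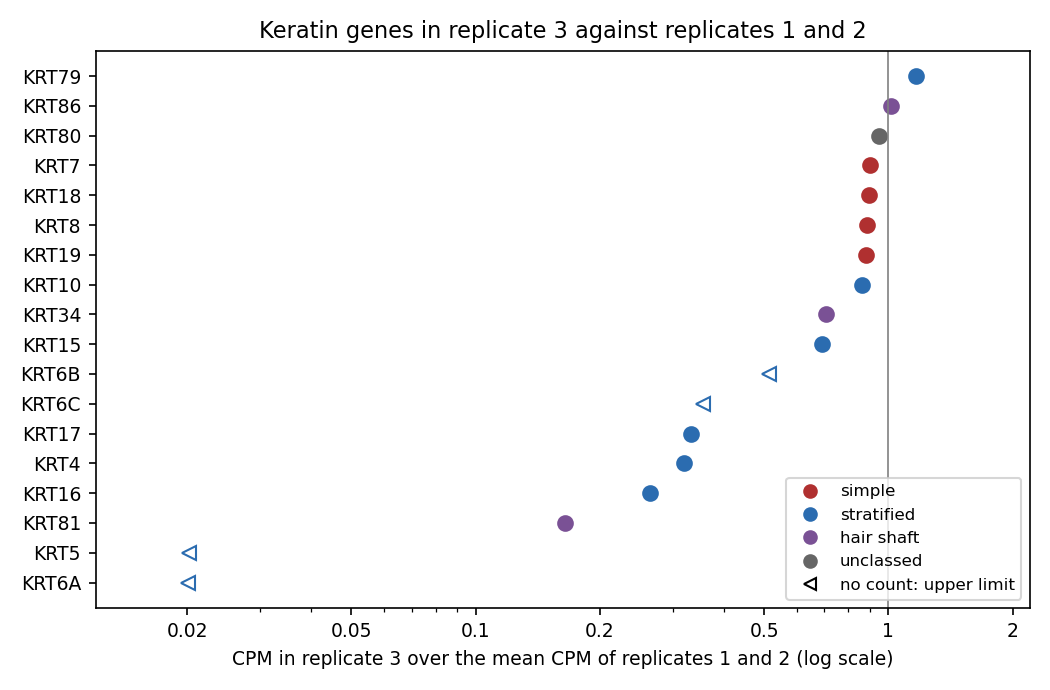
CPM in replicate 3 over the mean CPM of replicates 1 and 2, on a log scale, for the 18 keratins with 30 or more counts in all, coloured by class; open triangles are upper limits for genes with no count in replicate 3, from 6 counts over the lower of replicates 1 and 2. Simple keratins lie between 0.884 and 0.902, and the lowest points are KRT6A, KRT5 and KRT81.

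KRT81, low in replicate 3, and its neighbour KRT86, which was not called, are close copies, so their 57 bases at the same place in the rod domain are shown. The stretches lie at chr12:52291097-52291153 (KRT81) on the minus strand and at chr12:52302229-52302285 (KRT86) on the plus strand of GRCh38, each within 1 exon in GENCODE 29, and all letters are in lower case because no base differs.
KRT81: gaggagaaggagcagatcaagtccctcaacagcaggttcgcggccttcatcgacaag
KRT86: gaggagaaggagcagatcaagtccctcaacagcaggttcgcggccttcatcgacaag
The number of differing bases between KRT81 and KRT86 over this stretch was 0. Over whole transcripts, 31.7% of the 100-base stretches of KRT6C, 24.6% of KRT6B and 18.2% of KRT6A occurred in another gene, but 1.4% of those of KRT5. The shares were 30.3% for KRT81 and 28% for KRT86. How reads with several hits were counted is not given in the sources used here, so the low counts of KRT6B and KRT6C beside KRT6A, and the values of KRT81 and KRT86, are uncertain. KRT86 also overlaps KRT81 in the annotation.

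Few genes were as low in 1 library alone. By a rule chosen after the values were seen, 24 of 13366 genes with 40 or more counts in replicates 1 and 2 were under 0.5 times the lower of these in replicate 3, or 0.18%. KRT5, KRT6A, KRT81 and KRT17 were 4 of these 24, of 12 keratins with such counts. In replicates 1 and 2 the same rule gave 4 and 1 genes, or 0.0304% and 0.00763%, and no keratin. Among the others low in replicate 3 were SERPINB5 with 44, 68 and 0 counts, CXCL5 with 55, 50 and 0, FBN2 with 62, 59 and 3, ANPEP with 134, 148 and 7 and S100A14 with 43, 68 and 5. These 5 had the lowest ratios among the other 20 and were named after their values were seen. Whether a different share of cells or a different level per cell lies behind them cannot be told apart in bulk RNA.

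The 8 marker genes of skin keratinocytes, of which 4 are keratins, summed to 85.2, 68.9 and 68.6 CPM in replicates 1, 2 and 3. The near equal sums of replicates 2 and 3 hide opposite differences: FLG was at 41.2 and 49.5 CPM there, KRT10 at 22.1 and 19.0 and KRT5 at 5.42 and 0. Most of the sum came from FLG, a filament-binding protein of cornified cells, and from KRT10. LOR had no count, DSG1 0, 2 and 0, and IVL 6, 6 and 0. The 4 leukocyte genes summed to 2.47, 3.04 and 3.52 CPM and the 3 endothelial genes to 2.71, 3.25 and 3.66 CPM, highest in replicate 3, and PTPRC, the CD45 gene, varied, at 0.761, 1.03 and 1.68 CPM (edgeR adjusted p = 0.0159, and 0.0717 with GC and length trends removed). CD3E and CDH5 had at most 4 counts in a library. The part of other cells in the low keratins of replicate 3 was not tested.

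Of 14 tested regulators of keratin genes, 3 varied between libraries in the edgeR fit, beside 28.4% of all genes. EHF, an ETS factor of epithelial cells, was at 195, 181 and 220 TPM (adjusted p = 3.99e-12), and ETS1 and SP1, at 176 ± 7.30 and 101 ± 4.67 TPM, had adjusted p = 0.0196 and 0.0281. All 3 were highest in replicate 3. None of these calls held when a coefficient of variation of 0.05 was allowed for, beside 0.0485% of all genes called. The lowest of the 20 was OVOL1, with 4, 0 and 0 counts.

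Among 15 genes of other intermediate filaments, 8 were tested and 4 varied, beside 28.4% of all genes tested. VIM was at 4542, 4679 and 4361 TPM and LMNA, the lamin A and C gene, at 755, 757 and 667 TPM (edgeR adjusted p = 4.47e-127 and 1.58e-86), both lowest in replicate 3 as the simple keratins were. The lamin genes LMNB2 and LMNB1 were at 147 ± 8.03 and 196 ± 6.60 TPM (adjusted p = 3.16e-15 and 0.000247). LMNB2 was also lowest in replicate 3, but LMNB1 was lowest in replicate 1. With the GC and length trends removed, all 4 kept the call, beside 12.9% of all genes called. PRPH, INA, NEFM and BFSP2, filament genes of neurons and the lens, had no count. With a coefficient of variation of 0.05 allowed for, none of the 4 was called, beside 0.0485% of all genes.

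Of 17 plakins, linkers and other keratin-binding proteins, 15 were tested and 8 varied, beside 28.4% of all genes tested. The 8 were PLEC, DSP, EVPL, DST, PKP2, SFN, PNN and HSPB1. None of these 8 was called with a coefficient of variation of 0.05 allowed for (edgeR adjusted p = 0.664 or more), beside 0.0485% of all genes. With the GC and length trends removed, 6 kept the call, beside 12.9% of all genes called. EVPL and HSPB1 lost it there (edgeR adjusted p = 0.874 and 0.604). PLEC, which encodes plectin, the linker of filaments to hemidesmosomes, led at 452, 407 and 363 TPM. DSP, the desmosomal anchor of keratin filaments, was at 35.5, 33.6 and 37.6 TPM, and SFN, which encodes a partner of KRT17 and KRT18, at 150, 161 and 135 TPM. DNAJB6, a chaperone that binds KRT18, was at 156 ± 3.51 TPM and was not called (adjusted p = 0.365). The lowest was PKP1, a plakophilin of stratified epithelia, with 0, 0 and 6 counts.

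Of 16 genes of the cornified envelope and keratinocyte differentiation, the programme in which KRT1 and KRT10 are made, 3 were tested. Of these, 1 varied, beside 28.4% of all genes tested. FLG was at 10.6, 7.58 and 9.33 TPM (edgeR adjusted p = 1.25e-20) and was lowest in replicate 2, with adjusted p = 0.145 when a coefficient of variation of 0.05 was allowed for. CNFN followed at 5.09 ± 0.601 TPM (SD, n = 3). LOR, SPRR2A, SPRR3, CALML5 and KPRP had no count, which makes 5 of 16.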

How the data were processed

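The deposited tables list, for each RefSeq transcript record, the authors' read counts as whole numbers, not normalized, per the file headers and values. FastQC, TopHat2, Cufflinks and the build hg19 are named in the submitters' processing notes. Versions, the counting tool, its strand setting and its treatment of multiply mapped reads are not given in the sources used here. Copies of a record were summed, and a gene took its record with the largest total, for keratins among the named records. Records that no name could be matched to held 0.952, 0.959 and 0.944% of the counts. The members and gene lists were chosen with earlier results of these data known. CPM used TMM scaling in edgeR 4.0.16 (R 4.3.3), and TPM used GENCODE 29 transcript lengths.

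For variation between libraries, genes kept by filterByExpr were fitted in edgeR with a common mean and dispersion 0. Each deviance was compared with a chi-square distribution, and a Benjamini-Hochberg value under 0.05 was a call. Few genes had exactly 1 count (379 to 485 per library) and more had 2 (580 to 712), from which it was inferred that both mates of a pair were counted, and the deviance was divided by 2. The test compares these libraries, not conditions, and was tried on simulated data. Of 50 genes each lowered 1.25-fold, 1.5-fold, 2-fold and 4-fold in 1 library, 60, 84, 90 and 100% were called. There were 14 false calls among the genes left unchanged, of 14921 genes simulated in all. The simulated counts were pairs of mates with counting noise alone and no variation between cultures. The 14 false calls therefore do not measure false calls in the data, where 28.4% of genes were called. Named are all keratins at 1 CPM in each library, those that varied, the listed pairs, the highest 5 below that level, and of each list of other genes the highest 2, the lowest and those that varied. Alternatives covered record summing, scaling with DESeq2 1.42.0, length, filters, levels, classes, base composition, added variation and each library left out. Tables were made in Python 3.11.15 with pandas 2.3.3, and plots in matplotlib 3.10.9. Rod-domain sequences of some type II keratins are not reported here.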

Additional observations from a re-analysis of the deposited data

How the results depend on the processing

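No paired analysis was possible because all libraries belong to 1 group. The log2 ratio of type I to type II keratins was -0.71 with records summed, -0.39 in CPM, -0.10 with the unnamed record of KRT8 and -0.00388 with median transcript lengths, against -0.04 as reported; the last 2 alternatives were chosen after seeing the data. The share of simple keratins was 95.6% with records summed, 90.1% in CPM and 98.4% with KRT80 and KRT23 counted among them. Of the keratins tested, 1 varied when a coefficient of variation of 0.05, or of 0.1, was allowed for, beside 0.0485 and 0.0277% of all genes, and 2 to 8 when each library was left out in turn, beside 8.72 to 21.4% of all genes, with the lowest number without replicate 3. Keratins at 1 CPM in every library then numbered 8 to 12. Summing records moved the log2 ratio of KRT8 to KRT19 to 1.94 and of KRT7 to KRT18 to -1.67. These values depend on the number of records as well as on level, with 3 for KRT8, 2 for KRT18 and 1 each for KRT19 and KRT7. Of the values recomputed for the counts, the share and the type ratio, 10 moved beyond the spread between replicates (counts, beyond 1.5 times), 1 changed sign and 25 did neither. The sign change was that of the type ratio, 0.0643 without KRT80, an alternative also chosen after seeing the data. For single genes and pairs 18 moved, 69 did not and no sign changed. Depth limits what can be said of keratins with few counts, since a library with 0 counts allows up to 6 for counting error alone. With 3 libraries of 1 group the spread may be technical in part.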
